A study of Homo sapiens with 24 samples.

Results

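Non-epithelial arrays carrying the label HCT116 replicate 1 were compared with the rest of a study of isoginkgetin, a biflavonoid of plants that is known to inhibit the splicing of pre-mRNA. HCT116 is an established human colorectal carcinoma cell line, and the study also used a p53-null subline of it, HCT116p53-/-. Cells of both lines were left alone, given DMSO as the vehicle, or exposed to 30 µM isoginkgetin, each for 8 h in the same serum-containing medium. Each of these 6 groups held 2 arrays, 1 from each of the independent biological experiments per line. The arrays were taken by their titles, but they were called non-epithelial by marker genes measured in these same data. They are the 3 arrays titled HCT116 replicate 1 (untreated, DMSO and isoginkgetin) out of 12, set against the 9 arrays of HCT116 replicate 2, HCT116p53-/- replicate 1 and HCT116p53-/- replicate 2. Arrays sharing a line and a replicate number form a set of 3, and 1 set was thus compared with 3 others in which the treatments are matched. The null subline was derived from HCT116, which limits the other 9 arrays to 1 cell line background.

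Epithelial cells are held together by E-cadherin, desmosomes and tight junctions, carry keratin filaments and keep this state through regulators such as GRHL2 and the splicing factor ESRP1. Mesenchymal cells carry vimentin and N-cadherin instead, secrete a fibrous matrix, and express the transcription factors ZEB1 and TWIST1, which repress epithelial genes. HOX genes record the body region from which a cell lineage comes, and their pattern is usually kept in culture.

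Levels are log2 values on the Human Transcriptome Array 2.0, taken as the mean over all exon probe sets of a gene, for 18613 genes with at least 3 such probe sets (median 16). The set labelled HCT116 replicate 1 lay above the others over the whole array, with a median difference of 0.60 log2 over all genes. The shift was 0.59 to 0.68 log2 in the lower 6 deciles of level and 0.19 in the top decile, and it was −0.02 after quantile scaling of the 12 arrays. A gene is therefore called higher or lower here only where limma gave an adjusted p under 0.05 in the same direction both on the deposited values and after quantile scaling. This rule called 2806 genes higher (15.1% of all tested) and 1295 lower (6.96%), of which 610 and 256 differed by 3 log2 or more as deposited. The deposited values alone gave 8817 higher (47.4%) and 1360 lower (7.31%), and quantile scaling gave 2808 (15.1%) and 2661 (14.3%). The adjusted p rests on 1 set against 3, so that the lone set is assumed to vary like the others, and an exact permutation over sets could not go below p = 0.25. Precision is limited by the number of arrays. The adjusted p printed with a gene is that of the deposited values unless stated otherwise, and the one after quantile scaling can be far larger.

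The set lay apart from the set of the same line label and from the null sets alike. After quantile scaling, 3779, 3841 and 3966 genes (20.3, 20.6 and 21.3%) differed by 1 log2 or more between this set and HCT116 replicate 2, HCT116p53-/- replicate 1 and HCT116p53-/- replicate 2. HCT116 replicate 2 differed from the 2 null sets at 380 and 363 genes, and the null sets differed from each other at 61. At 3 log2 or more, the set differed from HCT116 replicate 2, which carries the same line label, at 774 genes, while HCT116 replicate 2 differed from the null sets at 18 and 14. Within the set the 3 treatments lay close together, with a median range over them of 0.105 log2 per gene, against 0.07 to 0.116 in the other sets.

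**Figure D1:**
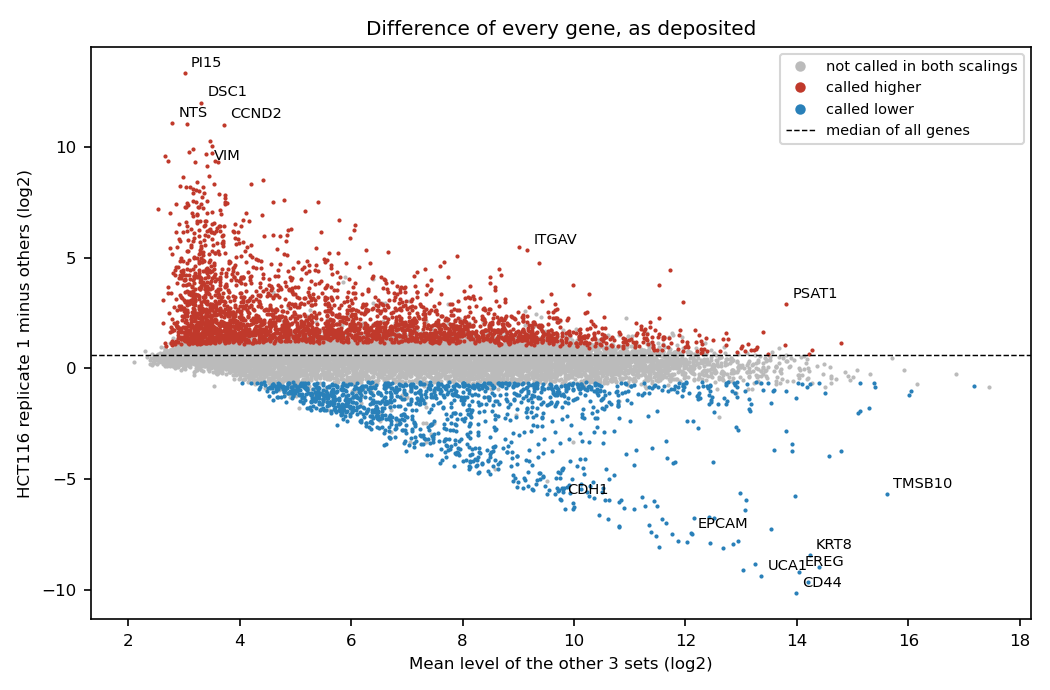
Difference between the set labelled HCT116 replicate 1 and the mean of the other 3 sets (log2, as deposited, vertical axis) against the mean level of the other sets (log2, horizontal axis), 1 point per gene. Red and blue points are genes called higher (2806) and lower (1295) in both scalings, grey points are the other genes, and the dashed line is the median difference of 0.60 log2.

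The 6 genes by which the arrays were labelled separated them from the 9 others with no overlap, a property that many genes shared. The 3 arrays lay above all 9 others at 71.3% of genes and below them at 10.1% as deposited, and at 27.5 and 30.2% after quantile scaling. VIM, which encodes the mesenchymal filament protein vimentin, had levels of 12.55, 12.52 and 12.62 on the untreated, DMSO and isoginkgetin arrays of the set, and 3.07, 3.5 and 3.69 as the lowest, median and highest of the 9 others. All 3 arrays were high under every treatment, and the difference was 9.14 log2 (SE 0.28, limma adjusted p = 6.2e-17; 8.77 log2 after quantile scaling). THY1, a surface glycoprotein of fibroblasts and neurons, lay at 7.76, 7.79 and 7.83 against 3.57, 3.67 and 3.68. FBN1, a component of microfibrils, lay at 7.26, 7.30 and 7.43 against 3.33, 3.47 and 3.61. Both were called higher, by 4.15 and 3.86 log2 (limma adjusted p = 9e-12 and 3.7e-11), and 75 of 75 exon probe sets of FBN1 were higher.

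The 3 epithelial genes of the label ran the other way. EPCAM, an adhesion molecule of epithelia, lay at 4.63, 4.61 and 4.62 in the set and at 11.93, 12.13 and 12.30 in the others. KRT8, a keratin of simple epithelia, lay at 5.72, 5.72 and 5.89 against 13.85, 14.28 and 14.46. CDH1, which encodes E-cadherin, lay at 3.77, 3.76 and 3.90 against 9.56, 9.75 and 10.02. Each was low on all 3 arrays and high on all 9, and they were called lower by 7.49, 8.46 and 5.96 log2 (limma adjusted p = 4.1e-16, 1.3e-16 and 2.4e-14). In bulk RNA, fewer cells of a type and less RNA per cell cannot be told apart. The gap was present under each of the 3 treatments.

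**Figure D2:**
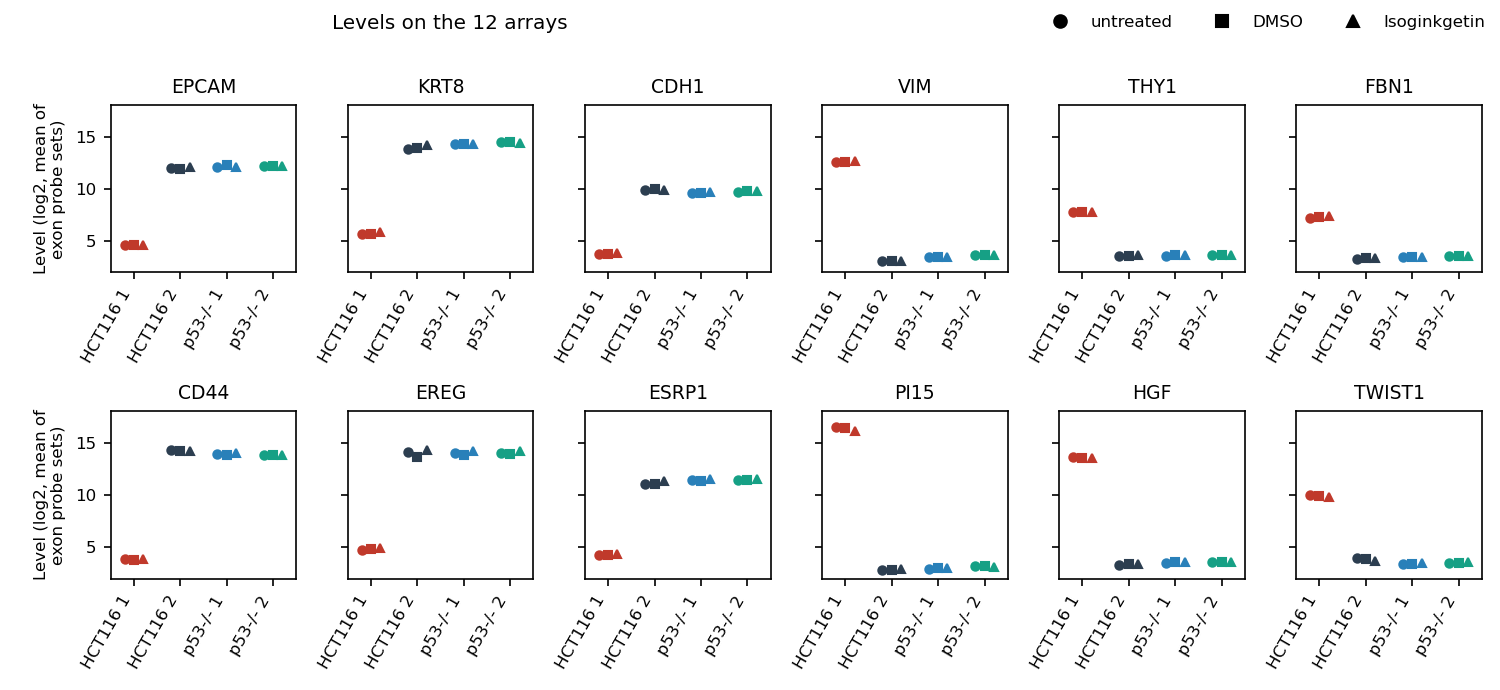
Levels of 12 genes (log2, mean of exon probe sets) on the 12 arrays, grouped by set along the horizontal axis, with circles for untreated, squares for DMSO and triangles for isoginkgetin. In every panel the 3 arrays labelled HCT116 replicate 1 lie on one side and the 9 others on the other, as for VIM (12.52 to 12.62 against 3.07 to 3.69).

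Low epithelial levels went beyond these markers. Of 36 measured genes of simple epithelium 29 were called lower (80.6%, against 6.96% of all genes) and 0 higher, and the list had a median difference of −4.16 log2 against 0.60 over all genes. The 29 include EPCAM, KRT8 and CDH1, by which the arrays were labelled. The other keratins of simple epithelia were among them, with KRT18 at a mean of 5.68 in the set against 12.12 to 12.68 on the 9 other arrays, and KRT19 at 4.27 against 11.33 to 12.16. CDH3, which encodes P-cadherin, lay at 4.15 against 11.88 to 12.16. The claudins of tight junctions, CLDN7 and CLDN4, lay at 5.73 and 5.29 against 12.07 to 13.21 and 9.63 to 10.00. For each of these genes the set lay below all 9 others.

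Regulators of the epithelial state were low as well. ESRP1, which directs epithelial splicing, lay at 4.28, 4.21 and 4.36 against 11.05, 11.40 and 11.52 (−7.06 log2, SE 0.26, limma adjusted p = 1.4e-15). Its paralogue ESRP2 lay at 4.44 against 7.97 to 9.03, and the transcription factor GRHL2 at 3.93 against 7.65 to 8.65. The membrane proteases ST14 and PRSS8 lay at 4.30 and 5.01, against 9.71 to 10.06 and 8.04 to 10.55, and their inhibitors SPINT1 and SPINT2 at 3.78 and 4.06, against 8.90 to 9.57 and 8.08 to 9.12. RAB25, a small GTPase of epithelial vesicle traffic, and AP1M2, an adaptor for sorting to the basolateral membrane, lay at 3.82 and 4.48, against 10.21 to 10.92 and 9.74 to 11.26. Thus regulators, enzymes and sorting proteins of epithelia were called lower along with the structural genes.

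The epithelial list was not low as a whole. DSP, which anchors keratin to desmosomes, lay at 3.78 against 10.41 to 10.82, but the desmosomal cadherin DSG2 kept a level of 10.17 (against 12.77 to 13.08, called lower). DSC2, another desmosomal cadherin, lay at 10.10 against 8.19 to 9.65 and was not called after quantile scaling. OCLN, which encodes the tight junction protein occludin, lay at 10.46 against 9.62 to 10.08 (limma, not called). In the set 4 of the 36 genes had a mean above 6 log2, against 29 in the other sets.

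The promoters of 4 of the genes called lower are shown because ZEB1 and SNAI1, repressors that bind the E-box CACCTG in background knowledge, differed between the sets in opposite directions, ZEB1 being called higher and SNAI1 lower. The stretches are the 250 bases before the start of the gene, from RefSeq on GRCh38.p14, 5′ to 3′ on the gene's strand, with each match to CACCTG on either strand (CACCTG or CAGGTG) in capitals. They lie at chr19:10587313-10587562 (minus strand) for AP1M2, chr6:7541421-7541670 (plus strand) for DSP, chr1:156060910-156061159 (plus strand) for RAB25 and chr12:52926470-52926719 (minus strand) for KRT8.
AP1M2: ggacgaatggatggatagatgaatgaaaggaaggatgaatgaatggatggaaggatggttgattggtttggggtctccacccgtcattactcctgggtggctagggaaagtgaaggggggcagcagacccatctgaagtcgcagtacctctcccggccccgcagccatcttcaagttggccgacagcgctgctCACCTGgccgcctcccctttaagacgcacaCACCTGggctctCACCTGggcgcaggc
DSP: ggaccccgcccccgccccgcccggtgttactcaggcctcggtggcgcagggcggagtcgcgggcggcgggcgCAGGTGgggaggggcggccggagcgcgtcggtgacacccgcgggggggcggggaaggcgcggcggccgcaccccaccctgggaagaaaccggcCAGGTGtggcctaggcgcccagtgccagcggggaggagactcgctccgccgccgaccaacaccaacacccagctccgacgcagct
RAB25: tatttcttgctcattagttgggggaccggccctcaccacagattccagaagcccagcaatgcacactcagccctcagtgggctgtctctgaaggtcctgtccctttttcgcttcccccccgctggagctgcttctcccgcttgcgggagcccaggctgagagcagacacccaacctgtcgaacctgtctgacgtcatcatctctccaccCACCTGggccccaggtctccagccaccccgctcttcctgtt
KRT8: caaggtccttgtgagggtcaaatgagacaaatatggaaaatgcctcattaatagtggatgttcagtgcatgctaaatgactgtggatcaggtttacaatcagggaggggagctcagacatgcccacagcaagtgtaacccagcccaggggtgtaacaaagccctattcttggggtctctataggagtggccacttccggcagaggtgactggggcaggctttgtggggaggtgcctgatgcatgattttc
AP1M2 had 3 matches, DSP 2, RAB25 1 and KRT8 0. The first 3 were picked from the 5 genes found to hold the motif and KRT8 was added, so that their matches are no result. Of the 29 epithelial genes called lower, 12 had an entry in the RefSeq table and 5 of these (41.7%) held the motif, against 4781 of 27305 promoters of this length in the table (17.5%). A match is only a description of these letters.

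Colon genes did not follow the epithelial ones. Of 17 measured colon genes 2 were called higher and 1 lower (11.8 and 5.88%, against 15.1 and 6.96% of all genes), and 0 had a mean above 6 log2 in this set or in the others. LGR5, a WNT target and marker of intestinal stem cells, lay at 6.03, 6.00 and 5.62 against 2.93, 3.16 and 3.40, so that the set was higher on every array. CDX2, the transcription factor of intestinal identity, lay at 3.68, 3.81 and 3.84 against 5.07, 5.21 and 5.64, and was called lower by 1.5 log2 (SE 0.27, limma adjusted p = 8.4e-05). VIL1, a protein of microvilli, was called higher at 4.78 against 3.29 to 3.69. The median difference of the list was 0.56 log2 as deposited and −0.02 after quantile scaling, the same as over all genes in the scaled values.

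Mesenchymal genes were higher in part. Of 28 measured genes 15 were called higher (53.6%, against 15.1% of all genes) and 3 lower (10.7%, against 6.96%), with a median difference of 1.42 log2. The 15 include VIM, THY1 and FBN1, by which the arrays were labelled. The 3 transcription factors TWIST1, PRRX1 and ZEB1 of mesenchymal cells stood high on all 3 arrays. TWIST1 lay at 10.01, 9.95 and 9.83 against 3.39, 3.54 and 3.93 (6.33 log2, SE 0.27, limma adjusted p = 1.2e-14), PRRX1 at a mean of 10.08 against 3.31 to 3.76, and ZEB1 at 9.91 against 5.07 to 5.45. None of the 3 arrays overlapped the others for these factors. SNAI1, another repressor of CDH1, was called lower instead, at 4.90, 4.67 and 4.45 against 7.57, 7.81 and 9.0 (−3.41 log2, SE 0.32, limma adjusted p = 1e-08).

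Adhesion, receptor and contractile genes of the mesenchymal list showed the same mixture. CDH2, which encodes N-cadherin, lay at 7.61, 7.57 and 7.51 against 3.26, 3.49 and 3.54, opposite to CDH1 on every array. PDGFRA, a receptor of platelet-derived growth factor, lay at 9.65 against 3.35 to 3.65, and MME, a surface peptidase, at 8.96 against 3.26 to 3.51. The contractile genes TAGLN and ACTA2 lay at 8.05 and 8.12 against 3.99 to 4.52 and 4.09 to 5.32; ACTA2 belongs to the near-identical actins and is uncertain. NT5E, the surface nucleotidase used as a marker of mesenchymal stromal cells, was called lower, at 4.02, 3.94 and 4.03 against 10.81, 11.36 and 12.13 (−7.38 log2, SE 0.29, limma adjusted p = 2.7e-15). CAV1, the main protein of caveolae, was also called lower (5.24 against 10.97 to 11.84), and AXL, a receptor tyrosine kinase, overlapped the others (9.56 against 9.21 to 9.75). High VIM, CDH2, TWIST1 and ZEB1 thus stood beside low SNAI1, NT5E and CAV1.

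Matrix genes divided by chain. COL5A2, a chain of fibrillar type V collagen, lay at 11.63, 11.55 and 11.35 against 3.51, 3.57 and 3.81 (7.89 log2, SE 0.26, limma adjusted p = 2.3e-16). COL6A3, a chain of the beaded filaments, lay at 9.73 against 3.61 to 3.84, but its partner chains COL6A1 and COL6A2 lay at 5.76 and 5.23, against 5.85 to 6.15 and 5.27 to 5.89. COL1A1 and COL1A2, the chains of type I collagen, lay at 4.80 and 4.67, and after quantile scaling they differed by 0.04 and 0.28 log2 (limma adjusted p = 0.89 and 0.17). Type I collagen was thus not called, while single chains of types V and VI were. Of 21 measured collagens and processing genes 5 were called higher and 2 lower (median 0.59 log2). The shares were 23.8 and 9.52%, against 15.1 and 6.96% of all genes. The other higher ones were PCOLCE, an enhancer of procollagen cleavage (10.72 against 4.64 to 4.90), the crosslinking enzyme LOX (6.13 against 2.94 to 3.33) and the collagen chaperone SERPINH1 (10.24 against 8.02 to 8.54).

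Other matrix genes were higher too, with exceptions. POSTN, a matricellular protein of connective tissue, lay at 11.32, 11.27 and 11.28 against 3.07, 3.27 and 3.43, and SPARC, which binds collagen, at a mean of 9.78 against 4.04 to 4.37. NID1 and NID2, the linkers of the basement membrane, lay at 11.23 and 8.37 against 2.71 to 3.30 and 2.90 to 3.26. Of the laminins, LAMC1, LAMB2 and LAMA1 were called higher (11.21, 8.97 and 6.29), and LAMB1 and LAMA3 lower (4.98 and 4.11 against 6.01 to 6.32 and 4.62 to 5.24). LAMA3 is a chain of the laminin beneath epithelia. FN1, which encodes fibronectin, lay low in every set, at 3.73 against 3.94 to 4.46. Of 16 measured basement membrane genes 6 were called higher and 2 lower (37.5 and 12.5%, against 15.1 and 6.96% of all genes), with a median of 0.82 log2.

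**Figure D3:**
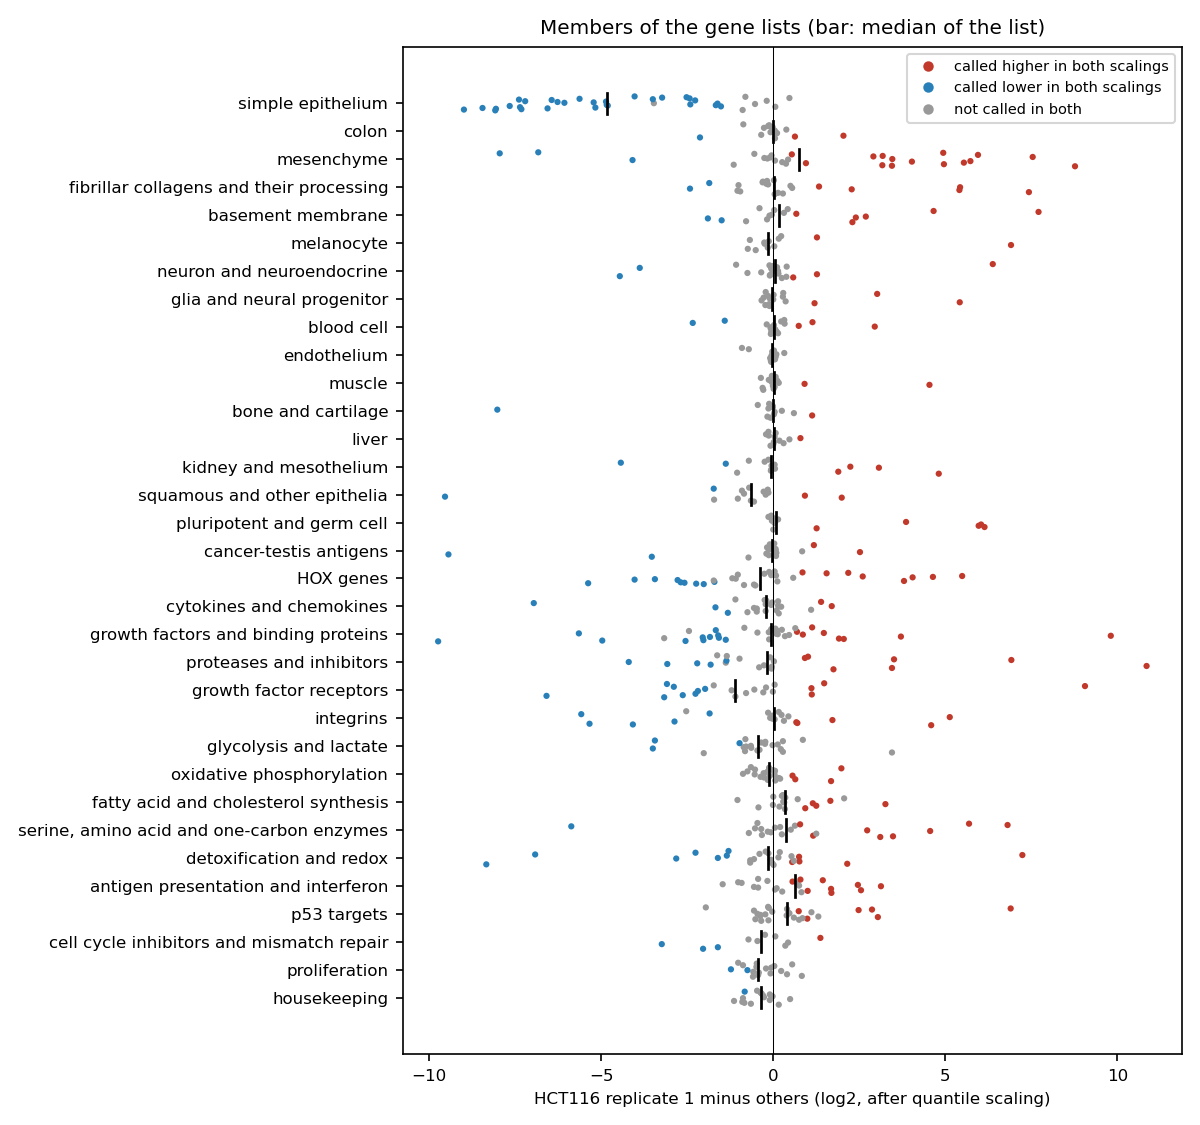
Difference between the set labelled HCT116 replicate 1 and the other 3 sets (log2 after quantile scaling, horizontal axis) for each measured member of 33 gene lists (rows), 1 point per gene. Red and blue points were called higher and lower in both scalings, and the black bar is the list's median, which lies furthest from 0 for simple epithelium (−4.82).

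The 12 largest differences in each direction over all genes were named by rule. The largest was PI15, a secreted protein of the CRISP family, at 16.50, 16.45 and 16.16 against 2.80, 3.05 and 3.22 (13.36 log2, SE 0.26, limma adjusted p = 1.5e-19). DSC1, a desmosomal cadherin of the upper epidermis, lay at 15.35, 15.31 and 15.30 against 3.17, 3.30 and 3.47. CCND2, which encodes cyclin D2, lay at 14.83, 14.79 and 14.64 against 3.57, 3.70 and 3.86. All exon probe sets of the 3 genes (9, 17 and 10) were higher in the set. GJA1, which encodes the gap junction protein connexin 43, lay at 13.84, 13.77 and 13.65 against 3.18 to 3.6. MAB21L2, a gene of eye development, EPHA7, an ephrin receptor, and INA, a neuronal filament protein, had mean levels of 12.90, 13.08 and 12.26, against 2.88 to 3.26, 3.14 to 3.67 and 2.46 to 2.93. NTS, MMP10 and HGF are described with the secreted genes, and GPRIN3 and SHISA3 complete the 12, at 13.07 and 13.25 against 3.03 to 3.28 and 3.25 to 3.64. The differences of the 12 ran from 9.60 to 13.36 log2.

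The largest lower gene was CD44, the hyaluronan receptor, at 3.83, 3.82 and 3.86 against 13.79, 13.95 and 14.32 (−10.16 log2, SE 0.27, limma adjusted p = 8.5e-18), with 30 of 30 exon probe sets lower. GTSF1, a factor of the piRNA pathway of germ cells, lay at 4.58, 4.55 and 4.56 against 13.76, 14.08 and 14.59. SFN, the 14-3-3 protein of stratified and glandular epithelia, lay at 5.39, 5.29 and 5.49 against 13.86, 14.35 and 14.95. These 3 genes were thus high on all 9 other arrays and low on all 3 of the set. UCA1, a long noncoding RNA, ACSL5, an acyl-CoA synthetase of intestine, and MAGEB2, a cancer-testis antigen, had mean levels of 3.96, 3.93 and 4.38, against 12.36 to 14.13, 12.14 to 13.65 and 12.64 to 13.58. The membrane-binding proteins ANXA1 and MYOF and the raft protein MALL had mean levels of 4.54, 4.91 and 4.54, against 11.97 to 13.16, 12.07 to 13.40 and 12.15 to 12.76. EREG, NTSR1 and KRT8 are the rest of the 12, whose differences ran from −7.90 to −10.16 log2.

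TYRP1, an enzyme of the melanosome, lay at 10.77, 10.71 and 10.79 against 3.18, 3.31 and 3.39 (7.45 log2, SE 0.26, limma adjusted p = 4.1e-16), with 23 of 23 exon probe sets higher. OCA2, a melanosome transporter, was also called higher (5.44 against 3.34 to 3.62). The regulators and other pigment genes of the list were not, with MITF at 4.28 against 3.86 to 4.42, SOX10 at 4.19 against 3.44 to 3.93, PMEL at 3.81 against 3.88 to 3.96 and MLANA at 3.47 against 2.79 to 3.35. In all 2 of 12 melanocyte genes were called higher (16.7%, near the 15.1% of all genes) and 0 lower, with a median difference of 0.49 log2 against 0.60 over all genes.

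NES, the filament protein of neural progenitors and other immature cells, lay at 10.74, 10.60 and 10.54 against 4.05, 4.80 and 4.96. UCHL1, a neuronal ubiquitin hydrolase, lay at 10.20, 10.10 and 10.28 against 3.13, 3.25 and 3.34, and GPM6A, a membrane glycoprotein of neurons, at a mean of 7.21 against 3.37 to 3.62. Both were clear of the 9 others. SYT1, the calcium sensor of vesicle release, and SCG2, a granule protein, were called lower (4.05 and 3.70 against 7.31 to 8.36 and 6.18 to 7.70). Calls among 23 neuronal and neuroendocrine genes numbered 3 higher and 2 lower (13 and 8.7%), and among 16 glial and progenitor genes 3 and 0 (18.8 and 0%), against 15.1 and 6.96% of all genes. GFAP, OLIG2 and STMN2, defining genes of astrocytes, oligodendrocytes and neurons, lay at 4.97, 4.37 and 3.65 and were not called.

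In blood cell genes the count was 3 of 20 higher and 2 lower (15.0 and 10.0%, against 15.1 and 6.96% of all genes), with LCP1, an actin bundler of leukocytes and many tumour lines, at 8.19 against 4.31 to 4.85, while PTPRC, which encodes the pan-leukocyte antigen CD45, lay at 3.78 against 3.16 to 3.39. Of 12 endothelial genes 0 were called in either direction, where 5 were higher on the deposited values alone and 1 was lower after quantile scaling alone (limma). CDH5, the cadherin of vessels, lay at 3.83 against 3.17 to 3.38, and KDR, a receptor of vascular endothelial growth factor, at 3.71 against 3.03 to 3.34. CNN1, which encodes calponin of smooth muscle, lay at 8.69, 8.59 and 8.62 against 3.38, 3.44 and 3.55, whereas MYOD1 and DES, genes of skeletal muscle, lay at 3.83 and 4.67 and were not called. Of 15 muscle genes 2 were called higher (13.3%) and 0 lower, the second being ACTG2, an actin that is uncertain for the reason given. Of 12 liver genes 1 (8.33%), the fibrinogen chain FGG, was called higher (4.84 against 3.19 to 3.78), and ALB lay at 4.01 against 3.19 to 3.62.

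Some regulators of kidney and skeleton differed strongly. PAX2, a transcription factor of the developing kidney, lay at 10.22, 10.00 and 10.03 against 4.43, 4.73 and 4.89 (5.42 log2, SE 0.26, limma adjusted p = 1.4e-13). SIX2, a factor of nephron progenitors and of facial mesenchyme, lay at 10.46, 10.65 and 10.72 against 6.51, 6.88 and 7.33. The set was higher in both without overlap, although PAX8, LHX1 and WT1 of the same list lay at 4.30, 3.58 and 3.71 and were not called. Of 15 kidney and mesothelium genes 4 were called higher and 2 lower (26.7 and 13.3%, against 15.1 and 6.96% of all genes). The lower ones were CALB2 and MSLN of mesothelium (3.89 and 4.16 against 7.01 to 8.32 and 4.68 to 5.07). SOX9, a factor of cartilage and of gut crypts, lay at 4.65, 4.67 and 4.62 against 10.68, 12.73 and 12.97 (−7.45 log2, SE 0.47, limma adjusted p = 1.3e-11). Of 13 bone and cartilage genes SOX9 was called lower and ALPL higher (5.21 against 3.22 to 3.63), or 7.69% in each direction. In the list of other epithelia, 2 of 15 were called higher and 2 lower (13.3% each). The higher ones were DSG3, the desmosomal cadherin of skin (5.97 against 3.15 to 3.45), and NKX2-1, a factor of lung and thyroid (5.93 against 4.11 to 4.54). SFN and KRT15 were lower. By junction probe sets NKX2-1 differed by −0.39 log2.

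Several genes of embryonic cells were higher in the set. SALL4, a zinc finger factor of embryonic stem cells, lay at 10.74, 10.79 and 10.72 against 3.79, 4.09 and 4.15 (6.70 log2, SE 0.26, limma adjusted p = 2.7e-15). LIN28A, which blocks maturation of let-7 microRNAs, lay at 10.49, 10.48 and 10.44 against 3.70, 3.92 and 4.15, and its paralogue LIN28B at 9.98, 10.00 and 9.85 against 3.10, 3.36 and 3.42. L1TD1, an RNA-binding protein of stem cells, lay at 9.62, 9.69 and 9.59 against 4.90, 5.18 and 5.26. All 4 lay far above every other array. NANOG, a core pluripotency factor, was called higher as well (4.63, 4.51 and 5.22 against 2.69 to 3.10), and POU5F1, its partner, lay at 3.80 against 3.04 to 3.43 and differed by 0.00 log2 after quantile scaling (limma adjusted p = 0.99). SOX2, listed with neural progenitors, was called higher at 5.33 against 3.24 to 3.77. Of 12 measured genes 5 were called higher (41.7%, against 15.1% of all genes) and 0 lower, with a median difference of 0.69 log2 that rests on the uncalled members. The germ cell genes DDX4 and DAZL lay at 4.26 and 3.93 and were not called.

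PRAME, a cancer-testis antigen of melanomas and other tumours, lay at 10.01, 9.98 and 10.04 against 6.47, 6.82 and 7.25, and LDHC, the lactate dehydrogenase of testis, at 5.33 against 3.27 to 3.6. MAGEB2 and MAGEA3 were called lower, the latter at 5.03 against 7.51 to 8.13, though the MAGEA genes are nearly identical and the value is uncertain. Of 19 measured antigens 2 were higher and 2 lower (10.5% each, against 15.1 and 6.96% of all genes), with a median of 0.60 log2, equal to that over all genes.

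The HOX clusters differed by cluster. Among 8 measured HOXC genes 4 were higher and 0 lower, and among 7 HOXD genes 3 and 0, whereas among 9 HOXA genes 0 were higher and 6 lower and among 8 HOXB genes 1 and 3. HOXC10 lay at 10.95, 10.81 and 10.88 against 4.63, 4.86 and 5.03 (6.04 log2, SE 0.26, limma adjusted p = 1.8e-14), and HOXC6, HOXC8 and HOXC9 at means of 9.26, 8.81 and 8.88 against 4.23 to 4.87, 3.25 to 3.71 and 5.32 to 6.08. HOXD10, HOXD9 and HOXD11 had mean levels of 6.17, 5.42 and 5.41 against 3.24 to 3.42, 3.07 to 3.37 and 3.81 to 3.95. These genes of the middle and posterior HOXC and HOXD clusters stood clear of every other array. HOXA7 ran the other way, at 4.68, 4.65 and 4.71 against 9.21, 9.33 and 9.64, and so did HOXA5, HOXA6, HOXA10, HOXA11 and HOXA13 (3.78 to 4.94). In the HOXB cluster HOXB2 was higher (8.17 against 3.47 to 3.92) and HOXB6, HOXB7 and HOXB8 lower (4.85, 7.13 and 4.94). By junction probe sets HOXB8 differed by 0.30 log2, with the opposite sign. HOXB9 was high in all sets, at 8.67 against 8.72 to 9.50.

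**Figure D4:**
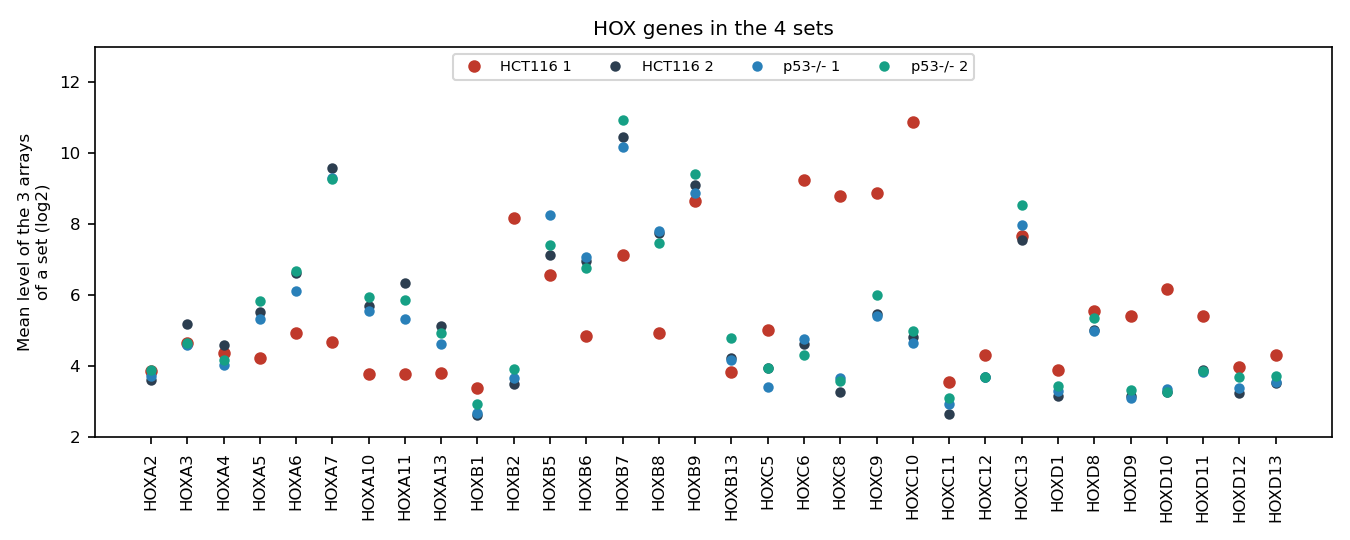
Mean level of the 3 arrays of each set (log2, vertical axis) for the 32 measured HOX genes in cluster order (horizontal axis). Red points, the set labelled HCT116 replicate 1, stand above the others for HOXC6 to HOXC10 and HOXD9 to HOXD11, and below them for HOXA5 to HOXA13.

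In 2 pairs of ligand and receptor, picked after their values were seen, the genes lay on opposite sides. HGF, a growth factor secreted by mesenchymal cells, lay at 13.61, 13.58 and 13.52 against 3.34, 3.56 and 3.59 (10.06 log2, SE 0.26, limma adjusted p = 6.3e-18). MET, the receptor of HGF on epithelia, lay at 4.73, 4.72 and 4.62 against 9.85, 10.26 and 11.74 (−5.94 log2, SE 0.40, limma adjusted p = 3.6e-11). The set was thus high in the ligand and low in the receptor. NTS, the precursor of the gut and brain peptide neurotensin, lay at 13.91, 13.90 and 13.89 against 2.52, 2.83 and 3.00, and its receptor NTSR1 at 3.42, 3.40 and 3.5 against 11.10, 11.58 and 11.80. The other 9 arrays held the reverse combination for both pairs.

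The ligands of the EGF receptor were low together with it. EREG lay at 4.78, 4.80 and 4.89 against 13.67, 14.04 and 14.28 (−9.21 log2, SE 0.26, limma adjusted p = 1.5e-17), TGFA at a mean of 4.00 against 8.08 to 8.58, and HBEGF, BTC and NRG1, a ligand of its relatives, at 5.13, 3.99 and 3.98. EGFR itself lay at 5.38, 5.29 and 5.28 against 7.58, 7.84 and 7.95, and none of these genes overlapped the others. BMP4, a bone morphogenetic protein, was lower (5.62 against 9.39 to 11.15) and BMP7 higher (6.94 against 4.27 to 5.44). Among platelet-derived growth factors PDGFD was higher (7.73 against 3.15 to 3.52) and PDGFA, PDGFB and PDGFC were lower (5.26, 4.23 and 3.88). FGF2 and FGF5, fibroblast growth factors, were higher (9.68 and 6.87 against 6.66 to 7.14 and 4.07 to 4.39), as was FGFR1, a receptor for them (8.50 against 6.55 to 6.93). Of 36 growth factors and binding proteins 8 were called higher and 11 lower (22.2 and 30.6%, against 15.1 and 6.96% of all genes), with a median of 0.64 log2.

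Of 21 growth factor receptors 4 were called higher and 8 lower (19.0 and 38.1%, against 15.1 and 6.96% of all genes). Their median was −0.41 log2, against 0.60 over all genes. DDR2, a receptor for fibrillar collagen in mesenchyme, lay at 12.89, 12.94 and 12.98 against 3.36, 3.56 and 3.68 (9.39 log2, SE 0.26, limma adjusted p = 1.5e-17). Its epithelial relative DDR1 lay at 5.82 against 7.58 to 8.29 and was called lower. DDR2 and DDR1 therefore differed in opposite directions, and MST1R, FGFR2, EPHA2, IGF1R and LIFR were lower as well. IL6ST, a shared chain of cytokine receptors, and the insulin receptor INSR were higher (10.76 and 7.46 against 8.47 to 8.90 and 5.42 to 5.85).

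Integrins, the receptors for the matrix, differed by alpha chain. ITGAV, the alpha chain of the vitronectin receptors, lay at 14.55, 14.50 and 14.49 against 8.89, 9.15 and 9.44 (5.36 log2, SE 0.27, limma adjusted p = 2.6e-13). ITGA1, a chain of a collagen receptor, lay at 8.76 against 3.31 to 3.77, and ITGA5, of the fibronectin receptor, at 9.66 against 7.95 to 8.63. ITGB4 and ITGA6, which form the laminin receptor of hemidesmosomes, were lower, at 4.52 and 7.95 against 9.16 to 9.62 and 9.23 to 10.71. ITGA3 and ITGA2 were also lower (5.04 and 5.95 against 9.33 to 10.11 and 8.50 to 9.92). In all 5 of 20 integrins were called higher and 5 lower, with a median of 0.69 log2. Each share was above that of all genes (15.1% higher and 6.96% lower). The common chain ITGB1 lay at 12.40 against 11.61 to 11.78 and was not called after quantile scaling.

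Proteases of the matrix differed in both directions. MMP10, which degrades matrix and activates other proteases, lay at 14.26, 14.22 and 13.82 against 2.87, 2.98 and 3.33, and the collagenase MMP1 and its neighbour MMP3 lay at 6.19 and 7.02 against 3.5 to 3.88 and 2.76 to 3.14. TIMP3, a matrix-bound inhibitor of metalloproteases, lay at 11.44, 11.17 and 10.86 against 3.67, 3.71 and 3.94 (7.42 log2, SE 0.26, limma adjusted p = 4.1e-16). The plasminogen activators PLAU and PLAT and the protease inhibitor SERPINE2 were lower (6.01, 4.40 and 4.19 against 7.80 to 9.0, 5.42 to 6.29 and 7.43 to 7.91). So metalloproteases with one of their inhibitors were higher, while the plasminogen activators were lower. Of 22 proteases and inhibitors 7 were called higher and 5 lower (31.8 and 22.7%, against 15.1 and 6.96% of all genes), with a median of 0.47 log2. MMP2, a gelatinase that fibroblasts express, lay at 3.89 against 3.10 to 3.5 and was not called.

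IL18, a cytokine of epithelia and macrophages, lay at 4.79, 4.69 and 4.70 against 10.85, 10.98 and 11.53 (−6.34 log2, SE 0.27, limma adjusted p = 1.2e-14). CSF1, the growth factor of macrophages, and IL32 were higher (6.70 and 6.71 against 4.03 to 4.76 and 4.46 to 4.83), and LIF and CXCL8 lower. Of 24 cytokines and chemokines 2 were called higher (8.33%, against 15.1% of all genes) and 3 lower (12.5%, against 6.96%), with a median of 0.42 log2. IL6 and CCL2, which fibroblasts often secrete, lay at 4.49 and 3.28 and were not called in both scalings.

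Of 22 genes of serine, amino acid and one-carbon metabolism 8 were called higher (36.4%, against 15.1% of all genes) and 1 lower, with a median of 0.91 log2. BCAT1, the cytosolic transaminase of branched-chain amino acids, lay at 10.49, 10.41 and 10.43 against 2.83, 3.06 and 3.28 (7.38 log2, SE 0.27, limma adjusted p = 7.5e-16). The serine synthesis enzymes PHGDH, PSAT1 and PSPH had mean levels of 10.65, 16.71 and 10.17 against 6.03 to 8.24, 13.04 to 15.21 and 8.05 to 8.78, so that all 3 steps of that pathway were higher. GLDC, which cleaves glycine, lay at 9.98 against 4.54 to 5.08, and CBS, the first enzyme from homocysteine to cysteine, at 9.78 against 3.31 to 3.63. CBS has a near-identical copy in some assemblies and is uncertain. PYCR1, the last enzyme of proline synthesis in mitochondria, lay at 4.91, 4.85 and 4.99 against 9.52, 10.03 and 10.67 and was called lower (−5.21 log2, SE 0.31, limma adjusted p = 3.6e-12). Asparagine synthetase, ASNS, was higher at 11.36, 11.37 and 11.27 against 7.37, 8.21 and 9.75.

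Of 22 glycolytic genes 0 were called higher and 3 lower (13.6%, against 6.96% of all genes), where limma called 5 higher on the deposited values alone and 0 higher after quantile scaling (median −0.04 log2). The platelet form of phosphofructokinase, PFKP, lay at 7.49 against 10.13 to 10.50, the lactate exporter SLC16A3 at 5.05 against 7.48 to 8.00, and PKM at 11.67 against 11.99 to 12.46. SLC2A3, a glucose transporter, lay at 9.99 against 4.16 to 7.11 and was called only on the deposited values. These lower genes were single steps of a pathway whose other members were not called. Of 24 respiratory and citrate cycle genes 4 were higher (16.7%, against 15.1% of all genes) and 0 lower (median 0.47 log2), with IDH2 at 9.42 against 6.34 to 7.11 and NDUFA4 at 10.45 against 7.92 to 8.41. Of 18 lipid synthesis genes 5 were higher (27.8%) and 0 lower (median 0.97 log2), with the desaturase FADS2 at 10.48 against 6.30 to 7.0 and HMGCS1, an early enzyme of cholesterol synthesis, at 11.24 against 8.47 to 9.85.

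Detoxifying enzymes differed gene by gene. CYP1B1, a cytochrome P450 of tissues outside the liver, lay at 12.49, 12.49 and 12.28 against 4.58, 4.79 and 5.05 (7.62 log2, SE 0.26, limma adjusted p = 3.3e-16). CYP24A1, which degrades vitamin D, lay at 3.63, 3.67 and 3.61 against 8.40, 9.94 and 11.47, and ALDH1A3, which makes retinoic acid, at 5.19, 5.14 and 5.10 against 12.68, 12.89 and 13.30. The set was high in CYP1B1 and low in CYP24A1 and ALDH1A3 under each treatment. ALDH2, the mitochondrial aldehyde dehydrogenase, was higher (9.46 against 6.28 to 7.04), and MGST1, a glutathione transferase of membranes, lower (6.48 against 8.02 to 9.26). Of 25 genes 5 were called higher and 7 lower, with a median of 0.43 log2. The share called higher was somewhat above the 15.1% of all genes. The share called lower was further above its background of 6.96%.

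Genes of antigen presentation and of the interferon response were called higher in 9 of 22 cases and lower in 0. The shares were 40.9 and 0%, against 15.1 and 6.96% of all genes, and the median was 1.28 log2. After quantile scaling 15 of the 22 lay above both null sets in this set, against 40.5% of all genes. In HCT116 replicate 2 the count was 17, against 33.0% of all genes, so that a lead over the null sets was not particular to this set. IFIT1, an interferon-induced protein, lay at 8.02, 8.05 and 7.61 against 3.54, 4.09 and 4.61. PSMB9, an interferon-induced proteasome subunit, and TAP1, the peptide transporter, had mean levels of 7.83 and 8.93 against 4.21 to 4.92 and 6.06 to 7.13. These were clear of the other arrays, while ISG15 and IFI44 of the same list lay at 4.49 and 3.95 and overlapped them.

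Target genes of p53 were described because the set carries the label of the parental line and 2 of the others that of the null subline. CDKN1A, which halts the cell cycle, had a mean of 7.91 in the set, 8.36 in HCT116 replicate 2 and 6.94 and 7.42 in the null sets. MDM2, the ubiquitin ligase of p53, lay at 11.51, 12.06, 10.81 and 10.91 in the same order. On these deposited values the set lay between HCT116 replicate 2 and the null sets for both genes, and neither was called. The set's shift was 0.61 and 0.56 log2 in the deciles around the level of CDKN1A. That exceeds its lead over HCT116p53-/- replicate 2, so that the order of CDKN1A is uncertain. EDA2R, a receptor of the tumour necrosis factor family, lay at 10.44, 10.34 and 10.11 against 2.67, 2.82 and 3.07 on all others, HCT116 replicate 2 included (7.45 log2, SE 0.26, limma adjusted p = 4.6e-16). SESN2, TIGAR, SPATA18 and CCNG1 were also higher. In all 6 of 27 targets were called higher and 0 lower (22.2 and 0%, against 15.1 and 6.96% of all genes). After quantile scaling 18 of the 27 lay above both null sets, against 40.5% of all genes, and 21 did so in HCT116 replicate 2, against 33.0% of all genes.

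Among 18 proliferation genes limma called 0 higher and 2 lower in both scalings (0 and 11.1%, against 15.1 and 6.96% of all genes). It called 3 higher on the deposited values and 0 after quantile scaling. MKI67, the proliferation marker, lay at 13.03 against 13.11 to 13.89, and CDC20 and PLK1, regulators of mitosis, were lower at 11.02 and 13.74 against 11.55 to 12.05 and 14.27 to 14.59. All 18 genes had means above 6 log2 in the set and in the others. Of 10 cell cycle inhibitors and repair genes 1 was called higher and 3 lower (10.0 and 30.0%). MSH6 of mismatch repair was higher (9.65 against 7.42 to 7.89). CDKN2A, CDKN2B and their neighbour MTAP were lower (4.79, 4.28 and 9.51 against 5.99 to 6.23, 5.05 to 5.32 and 11.96 to 12.45). Of 16 housekeeping genes 0 were higher and 1 lower (0 and 6.25%), the lower one being HSP90AB1. Limma called 1 higher (GUSB) on the deposited values alone, and ACTB lay at 12.34 against 11.67 to 12.08.

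The response to isoginkgetin was compared between the set and the others as the difference between the isoginkgetin and DMSO arrays of each set, 1 array each. Limma called 0 of 18613 genes (0.0%) for a different response, with 1678 (9.02%) at an unadjusted p under 0.05, a smallest adjusted p of 0.097, and 2 genes called by the unmoderated analysis of variance. Genes with a response of 1 log2 or more numbered 23 up and 6 down in the set, 40 and 29 in HCT116 replicate 2, and 20 and 0 and 10 and 1 in the null sets. For DMSO against untreated these were 0 and 0, 4 and 0, 2 and 1, and 0 and 0. The genes named next were chosen with earlier results or their values known.

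Among stress genes, CHAC1, DDIT4, SLC7A11 and ATF4 had responses in the 3 other sets and values close to 0 in this one, while DDIT3, a transcription factor of prolonged stress, had 0.80 log2 in the set against 1.67, 0.76 and 0.70 (difference −0.24, SE 0.41, limma adjusted p = 0.96). CHAC1, an enzyme that degrades glutathione, had responses of 4.45, 3.67 and 2.21 log2 in HCT116 replicate 2 and the null sets and −0.13 in the set (difference −3.57, SE 0.86, limma adjusted p = 0.35). DDIT4, an inhibitor of mTORC1, had 2.91, 2.78 and 1.58 against 0.00, and SLC7A11, which imports cystine, 2.58, 2.28 and 1.60 against −0.01. ATF4, which drives the integrated stress response, had 0.92, 0.88 and 0.55 against −0.02. None of these differences passed the test after adjustment, with limma adjusted p of 0.34, 0.27 and 0.31 for the last 3. The levels before the drug differed too. On the deposited values CHAC1 lay at 9.93 on the DMSO array of the set, against 4.99 to 5.34 on the other DMSO arrays. DDIT4 lay at 10.66 against 5.63 to 7.59. The highest values on any other array, isoginkgetin included, were 9.54 and 10.50. The leads over these are smaller than the set's shift of 0.60 log2 over all genes, so that their order is uncertain. ASNS and SESN2, targets of ATF4, were likewise high without the drug (11.37 and 10.14) and had responses of −0.10 and 0.23. Whether the levels before the drug bear on the responses was not tested.

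The zinc genes named here and the chaperone gene HSPA5 had responses of the same sign in all 4 sets. SLC39A10, a zinc importer, had −0.75 log2 in the set and −0.69, −0.70 and −0.92 in the others (difference 0.02, SE 0.12, limma adjusted p = 0.99). MT2A, a metallothionein, had 0.73 against 0.67, 0.69 and 0.43, and MT1X 0.76 against 1.78, 1.28 and 1.24, and both are uncertain because metallothioneins are nearly identical. SLC30A1, a zinc exporter, had 0.37 against 1.25, 1.62 and 1.46 (limma adjusted p = 0.26). HSPA5, a chaperone in the endoplasmic reticulum, had 0.28 against 0.41, 0.56 and 0.54. For these 5 genes no set had the opposite sign.

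Responses of some genes differed between the set and the others without passing the test. AVIL, an actin-binding protein, lay at 4.52 and 4.54 on the untreated and DMSO arrays and at 6.78 with isoginkgetin, a response of 2.24 log2 against 0.10, 0.22 and 0.05 (difference 2.11, SE 0.10, limma adjusted p = 0.097). TXNIP, an inhibitor of thioredoxin, had 1.15 against 0.10, 0.07 and −0.02 (limma adjusted p = 0.14). On the 9 other arrays AVIL lay at 3.43 to 3.89 and TXNIP at 2.92 to 3.23. The 10th percentile of gene levels in these sets was 3.02 to 3.28. A gene that is not expressed and one that does not respond cannot be told apart there. EGR1, an immediate early transcription factor, had −2.30 against 0.74, 0.05 and 0.04 (limma adjusted p = 0.20), and SOX4, a transcription factor, had 0.15 against −1.12, −0.88 and −1.05 (limma adjusted p = 0.18). Each of these responses rests on 1 isoginkgetin and 1 DMSO array.

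**Figure D5:**
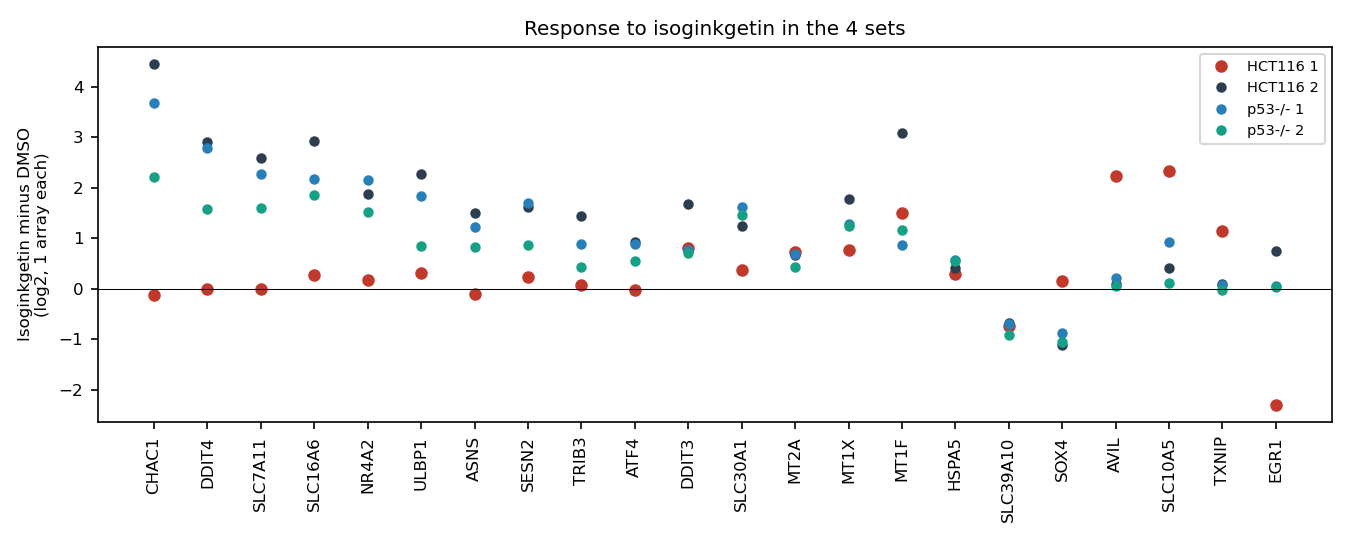
Response to isoginkgetin (isoginkgetin minus DMSO, log2, 1 array each, vertical axis) of 22 genes (horizontal axis) in the 4 sets. Red points, the set labelled HCT116 replicate 1, lie near 0 for CHAC1 to ATF4 apart from the other sets, beside them for MT2A and SLC39A10, and away from 0 for AVIL (2.24) and EGR1 (−2.30).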

How the data were processed

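Total RNA of 12 cultures was hybridised to the Affymetrix Human Transcriptome Array 2.0, and the authors deposited log2 values of exon and junction probe sets and of genes for each array, made with the default settings of Transcriptome Analysis Console 4.0, per the series' design text. The background correction and summarisation steps are not stated in these sources. Of 573909 exon probe sets, 385548 carried 1 gene symbol, 23151 several and 165210 none, 2474 symbols were updated through RefSeq, and the 381400 probe sets of the 18613 genes with at least 3 were averaged per gene.

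The mean over the 3 treatments of each set was tested with limma 3.58.1 in R 4.3.3 (lmFit, eBayes), HCT116 replicate 1 against the mean of the other 3 sets, with Benjamini-Hochberg adjustment over all 18613 genes. The response difference used isoginkgetin minus DMSO of each set in the same way. The fits were also run on simulated sets with known changes. There the lone set was drawn with the spread of the other 3 and without the array-wide shift. That run therefore cannot test whether the lone set varies like the others. The fit was repeated after quantile scaling, and calling a gene only where both fits passed was chosen after the data were seen.

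Named genes are the 6 genes of the label, the 12 largest called differences of each direction without overlap of arrays, up to 6 called members per list and defining members that were not called. Other genes were chosen after their values were seen; 1 gene is not reported here. The 33 lists (715 genes, 658 measured) and the members were chosen with earlier results of these data known. Once group means were subtracted, arrays sharing both line and number correlated at 0.903 to 0.997 (6 pairs), whereas arrays sharing only the number correlated at 0.0678 to 0.107 (9 pairs), so that numbers were not taken as pairing the lines.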

Additional observations from a re-analysis of the deposited data

How the results depend on the processing

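The number of genes called higher depended most on the scaling and on the test. From 8817 it went to 2808 with quantile scaling, 2597 with median centring, 2806 where both scalings had to agree, 4988 with the median of exon probe sets, 4683 with junction probe sets, 5126 for genes above 5 log2 in at least 1 set and 4241 at 1 log2 or more. It was 570 with the unmoderated analysis of variance, 13693 over 12 arrays with no block, and 5322 to 8155 without 1 of the other sets (5322 without HCT116p53-/- replicate 1). The number called lower went from 1360 to 2661 with quantile scaling, 3158 with median centring, 77 with the unmoderated analysis of variance, and 845 to 1340 without 1 of the other sets (845 without HCT116p53-/- replicate 2). With the replicate number as a block, 5703 genes were called higher and 878 lower, and 0 for the response; the numbers are not shown to pair the lines. The response difference called 0 genes, 2 with the unmoderated analysis of variance, and 0 to 42 without 1 of the other sets (42 without HCT116 replicate 2). For the named genes under the alternatives, 4079 values kept direction and call, 91 gained a call and 311 kept the direction but lost the call, 143 of these with the unmoderated analysis of variance. Of 268 named genes 6 turned sign under an alternative. The set differences of HOXB8, NKX2-1 and DES became 0.30, −0.39 and −0.64 log2 with junction probe sets, and those of CCL2, WT1 and SLC39A10 became −0.66, −0.058 and −0.032 with median centring, that of SLC39A10 also −0.002 with quantile scaling; the cause was not tested. The values carry no detection call, so that differences against low levels may be understated to an unknown extent, and the gap between the sets has no second set of the same kind beside it.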

Other observations

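The following genes lie outside the lists and were chosen after their values were seen. They stand for no wider group of genes. In the set labelled HCT116 replicate 1, DLX1 and DLX2, homeobox factors of forebrain and branchial arches, lay at 12.66, 12.62 and 12.36 and at 11.24, 11.18 and 11.32 on the untreated, DMSO and isoginkgetin arrays, against 3.89 to 4.42 and 3.62 to 3.98 on the 9 others. ALX1, a factor of facial mesenchyme, lay at 11.82, 11.66 and 11.41 against 2.74 to 3.28, and SHOX2, a factor of limb and heart, at 12.40, 12.40 and 12.72 against 5.57 to 6.25. LHX8 and TBX2 lay at means of 11.28 and 11.16 against 3.25 to 3.54 and 3.98 to 4.18. The oncofetal genes IGF2BP1, an RNA-binding protein, and GPC3, a surface proteoglycan, lay at 12.92 and 11.65 against 4.32 to 4.52 and 3.05 to 3.33. Each was called higher, by 6.72 to 8.66 log2 (limma, adjusted p from 6.3e-17 to 7.1e-15).

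A further 6 genes were picked in the same way. NNT, the mitochondrial transhydrogenase that makes NADPH, lay at 10.04, 9.99 and 10.11 against 3.26, 3.42 and 3.5, with 45 of 45 exon probe sets higher. ALDH1L2, a mitochondrial enzyme of folate metabolism, lay at 11.54, 11.56 and 11.55 against 3.16 to 3.44. PDP1, a phosphatase that activates pyruvate dehydrogenase, lay at 6.31, 6.31 and 6.15 against 13.08, 13.52 and 13.88, and PPP3CA, the catalytic subunit of calcineurin, at 5.42, 5.40 and 5.42 against 11.75, 12.24 and 12.47. TMSB10, which binds actin monomers, and ANXA2, a membrane-binding protein, lay at 9.92 and 8.19, where the lowest of the 9 others had 15.34 and 13.56. Each of these 6 genes had the 3 arrays clear of the other 9 and passed limma in both scalings (adjusted p from 1.2e-16 to 1.3e-13 as deposited).

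CCR1, a chemokine receptor of leukocytes, lay at 10.04, 10.01 and 9.25 on the untreated, DMSO and isoginkgetin arrays of the set against 2.36 to 2.78. MMP8, the neutrophil collagenase, lay at 10.43, 10.31 and 10.29 against 2.90 to 3.19, and GPR84, a fatty acid receptor, at 10.77, 10.58 and 9.64 against 2.87 to 3.25. CCR1 and GPR84 were lower on the isoginkgetin array than on the DMSO array, with responses of −0.76 and −0.95 log2 that did not pass the test (limma adjusted p = 0.27 and 0.20), and the mean level of PTPRC, a gene of all leukocytes, was 3.78 in the set. SERPINF1, a secreted factor that inhibits vessel growth, and NEFH, a neurofilament chain, lay at 12.15 and 11.86 against 3.18 to 3.70 and 3.42 to 3.67.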
